A study of Mus musculus with 10 samples.

Results

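The 4 genes of the AFF family and the corepressor gene Gse1 were examined for peaks of the transcription factor OTX2. Members were the rows of the deposited peak tables in which the authors' column of nearest gene gave Aff1, Aff2, Aff3, Aff4 or Gse1. This gave 65 of 42711 peaks in definitive endoderm (DE) and 7 of 6319 peaks in epiblast stem cells (EpiSCs), or 72 of 49030 rows in all. Aff1 and Gse1 were chosen by their numbers of DE peaks without an EpiSC counterpart, which were among the highest per gene, so their counts are given as a description, with no test. Aff2, Aff3 and Aff4 entered as relatives of Aff1, whatever their counts.

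The assay was CUT&RUN, in which an antibody brings a nuclease to its target in permeabilised cells and the DNA released nearby is sequenced. The cells were of a mouse line of BL6/129 hybrid strain, 7H OTX2-dTAG-EGFP, in which OTX2 carries an HA epitope, with 500000 cells for each sample. EpiSCs, a culture model of the epiblast, were grown in N2B27 medium with FGF2 at 12.5 ng/ml, Activin A at 20 ng/ml and NVP at 175 nM. DE, the precursor of gut, liver and pancreas, was made from them in CDM medium in a first step of 16 h with CHIR at 3 µM and Activin A at 40 ng/ml, and a second step of 24 h with LDN at 100 nM and Activin A at 100 ng/ml. DE cells that were alive by DAPI were sorted before the assay. Each state had 2 anti-HA samples, which the authors had pooled into 1 peak list. The values below therefore have no replicate spread, no comparison between the states could be tested, and intervals cover counting error only. Controls with a peak list were IgG samples of the tagged EpiSCs (n = 3) and an anti-HA sample of untagged DE cells, from the parental line 5.8 (n = 1). No list was used for the IgG samples of tagged DE (n = 1) and of parental DE (n = 1), so DE peaks were not set against any DE IgG list. None of the 72 member peaks overlapped any of the 565 control peaks (406 distinct, as IgG replicate 3 repeats every interval of replicate 2), which allows a share of up to 4.17%. Of all 49030 HA peaks, 0.173% overlapped a control peak, so nothing is read from the 0 at these genes. No control peak lay inside any of the 5 genes.

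AFF proteins are long scaffold proteins of transcription elongation. AFF1 and AFF4 hold together the super elongation complex, which brings the kinase CDK9 with a T-type cyclin to paused RNA polymerase II so that it can resume transcription. AFF2 and AFF3 are the other two members of the family; AFF2 is the gene silenced in a fragile X type of intellectual disability, and AFF1 is a frequent fusion partner of KMT2A in leukaemia. GSE1 is a coiled-coil protein that is found with the CoREST complex, whose histone deacetylases and the demethylase KDM1A remove active marks from chromatin.

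Peaks were very unevenly spread over the 5 genes. In DE, Gse1 was named at 29 peaks and Aff1 at 28, the highest and second-highest counts among 19566 genes named in the DE list. Aff3 was named at 6, and Aff2 and Aff4 at 1 each. Aff1 and Gse1 thus held 87.7% of the DE peaks of the 5 genes. For comparison, the median gene of the list was named at 1 peak, and 12 genes (0.0613%) were named at 20 or more. In EpiSCs, Gse1 was named at 6 peaks and Aff1 at 1, and the other three genes at none. The Gse1 count was shared with 1 other gene and exceeded by 3 of the 5096 genes in the EpiSC list, of which 0.0981% were named at 6 or more.

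**Figure D1:**
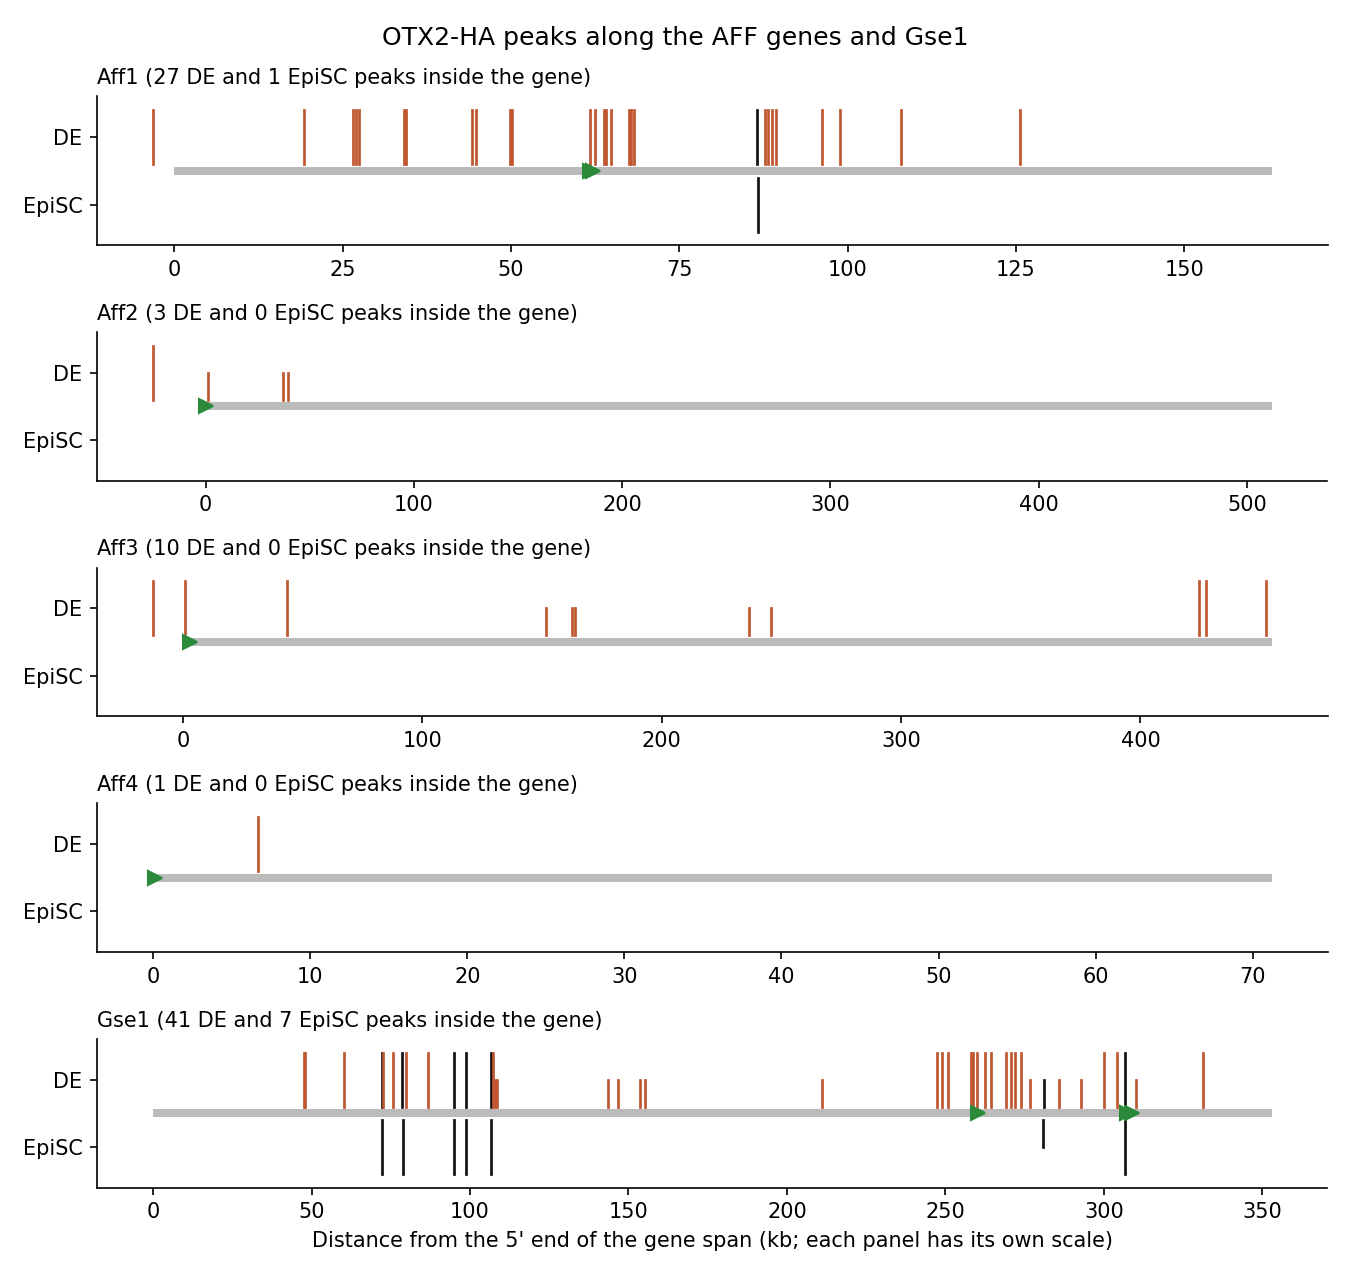
Position of OTX2-HA peaks along each gene, in kb from the 5′ end of the RefSeq gene span (grey bar), with DE peaks above and EpiSC peaks below. Black lines are peaks that overlap a peak of the other state, short lines are peaks inside the gene that the authors' table gives to another gene, and green arrows are starts in the RefSeq promoter table. Aff1 and Gse1 carry 27 and 41 DE peaks inside the gene and Aff4 carries 1.

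How many peaks a gene was given depended on which genes the nearest-gene column knew. By position, 41 DE peaks and 7 EpiSC peaks had their centre inside Gse1 (chromosome 8, 120228501 to 120581383 on mm10, 352883 bp, plus strand). Of the 41, 12 were given in the authors' deposited table to genes that lie within it, namely 7 to Gm22715, 4 to Gm26971 and 1 to the microRNA gene Mir7687. The EpiSC peak that carried another name was given to Gm26971. Inside Aff1 (chromosome 5, 103692362 to 103855322, 162961 bp, plus strand) lay 27 of its 28 DE peaks, and the other was 3.14 kb before the gene. Aff3 (chromosome 1, 38175393 to 38630178, 454786 bp, minus strand) held 10 DE peaks, of which 3 were given to Gm34727 and 2 to Gm16152. Aff2 (chromosome X, 69360190 to 69872054, 511865 bp, plus strand) held 3 DE peaks, which were all given to Gm14705, while the peak that carried its own name lay 25.3 kb before it. Aff4 (chromosome 11, 53350640 to 53421830, 71191 bp, plus strand) held its 1 DE peak, of 63 bp. By position, Gse1 ranked 2 and Aff1 ranked 9 among 21900 protein-coding genes, and the highest count was the 59 peaks of Auts2, a gene of 1105888 bp.

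Relative to gene length, Aff1 and Gse1 had high densities in the full DE list, while the other AFF genes were sparse or near the median. Aff1 carried 16.6 DE peaks per 100 kb of gene, or 1 peak per 6.04 kb, and Gse1 carried 11.6, or 1 per 8.61 kb. The median over 4945 protein-coding genes of at least 50 kb was 1.49 peaks per 100 kb, the 95th percentile was 5.86, and 74.5% of these genes held at least 1 DE peak. Aff1 stood at rank 5 and Gse1 at rank 19 of the 4945, at 11.1 and 7.81 times the median density. With only the 6319 widest DE peaks, Aff1 kept 7 peaks inside the gene and stood at rank 9. Gse1 kept 5 and stood at rank 290, so its high rank was not kept in that shorter list. The genes with a higher density than Aff1 were Tmem104, Lmx1b, Ddc and Pax7, all shorter than Aff1 and with 12 to 16 DE peaks each. Aff3 had 2.20 peaks per 100 kb, within the interquartile range of long genes (0 to 2.90), and Aff2 had 0.586. Aff4, which works with AFF1 in the super elongation complex, had 1.40, close to the median. In EpiSCs the density was 1.98 per 100 kb in Gse1, rank 86 of 4945, and 0.614 in Aff1, where 19.8% of long genes held an EpiSC peak.

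**Figure D2:**
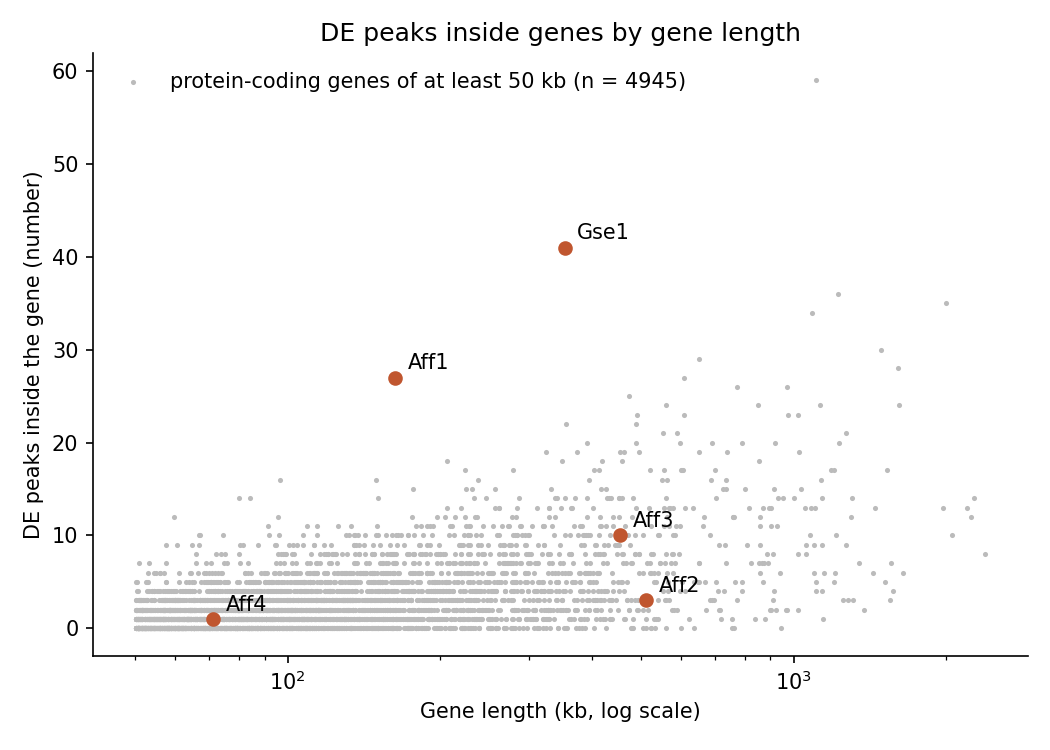
DE peaks inside each protein-coding gene of at least 50 kb (number, y axis) against gene length (kb, log scale, x axis), with the 5 genes in orange. Gse1 (41 peaks) and Aff1 (27) lie above the other genes of their length, and Aff2, Aff3 and Aff4 lie within the cloud.

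At Aff1, DE peaks covered a listed transcript start and lay on both sides of it. RefSeq's promoter table lists starts at 103754162 and 103754573, the first of them 61.8 kb into the gene span, which begins farther upstream than either. The peak at chr5:103754131-103754224 (94 bp) covered the first of these starts. It took in 81 of the 300 bases of the promoter window at chr5:103753912-103754211, which is shown from RefSeq (GRCm38.p6, plus strand) because it is the only one of the 8 listed promoter windows of the 5 genes that a peak overlapped, with the bases inside the peak in capitals.
Aff1 promoter: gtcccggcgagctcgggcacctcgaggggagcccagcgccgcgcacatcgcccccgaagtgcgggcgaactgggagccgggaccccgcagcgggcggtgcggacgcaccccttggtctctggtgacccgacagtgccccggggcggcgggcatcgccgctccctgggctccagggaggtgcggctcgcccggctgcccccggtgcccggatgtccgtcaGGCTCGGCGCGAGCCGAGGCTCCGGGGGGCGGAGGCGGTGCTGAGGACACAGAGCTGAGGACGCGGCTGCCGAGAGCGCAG
Of all 32851 windows in the table, 18.3% were overlapped by a DE peak and 6.33% by an EpiSC peak. G and C made up 77.3% of this window, against a median of 52.7% over all windows. In the windows of the 5 genes that no peak overlapped, they made up 55% (first start of Gse1) to 83.3% (Aff3). The overlapped window thus did not stand apart in this. The Aff1 window shown did not hold the letters TAATCC or, on the other strand, GGATTA, a short sequence bound by OTX-type homeodomains, which 7.06% of all windows held.

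A run of 8 DE peaks began at that start and went 6.69 kb downstream, from 103754131 to 103760819. Upstream of it, 10 DE peaks lay between the 5′ end of the span and the first listed start, and among these the run of 3 at 103718812 to 103720030 was 34.3 to 35.3 kb before the first listed start. Downstream, a run of 5 covered 2.99 kb from 103778727 to 103781715, 24.4 to 27.1 kb after the second start. It opened with the only Aff1 peak that was also found in EpiSCs. The widest Aff1 peak, of 695 bp at 103790947 to 103791641, lay 36.7 kb after the second start; 60 of the 42711 DE peaks were wider. Beyond 103817968 there was no peak in the last 37.4 kb of the gene.

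Gse1 held its DE peaks in separate groups along 352883 bp. The largest space between neighbouring peaks, 55.6 kb, divided them into 19 peaks on the 5′ side (120276140 to 120383871) and 22 on the 3′ side (120439434 to 120559952). The promoter table lists starts at 120488866, 120535857 and 120537409, so 26 of the 41 peaks lay before the first listed start, in the part of the gene span upstream of it. On the 3′ side the main group was a run of 12 peaks over 27.8 kb, from 120486602 to 120514443. The centre of its first peak was 2.22 kb before the first listed start. The widest Gse1 peak named as such, 459 bp at 120490673 to 120491131, lay 2.04 kb after that start, and a peak of 469 bp at 120538317 to 120538785 was the one given to Mir7687. No peak covered a listed start of Gse1. The nearest DE peak ended 216 bp before the window of the first start, 422 bp before that of the second, and lay 859 bp after that of the third.

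The second listed start of Gse1 had a peak in both states just upstream. The DE peak at 120535054 to 120535185 and the EpiSC peak at 120535110 to 120535202 overlapped by 76 bp, with their centres 0.738 kb and 0.701 kb before the start. The promoter window that follows, at chr8:120535607-120535906 (RefSeq, GRCm38.p6, plus strand), is shown because it was the only window of the 5 genes that held TAATCC, which is in capitals.
Gse1 promoter: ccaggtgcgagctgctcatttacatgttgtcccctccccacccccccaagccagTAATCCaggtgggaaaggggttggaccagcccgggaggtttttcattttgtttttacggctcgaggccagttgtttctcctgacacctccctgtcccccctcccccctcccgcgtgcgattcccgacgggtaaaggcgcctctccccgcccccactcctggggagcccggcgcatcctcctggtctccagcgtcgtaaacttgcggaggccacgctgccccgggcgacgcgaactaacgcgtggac
Both peaks lay outside this window, so the match is a description of the letters and not of the bound sequence.

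Place within the gene was compared with all 10649 DE peaks inside 3867 long protein-coding genes of known strand. The first 33.3% of the span held 10 of 27 peaks in Aff1 (37.0%, exact 95% Clopper-Pearson interval 19.4 to 57.6%) and 15 of 41 in Gse1 (36.6%, 22.1 to 53.1%). The share over all long genes was 38.7%, within both intervals, as measured from the 5′ end of the span. Measured from the most upstream listed start, with the peaks before it left out, the first 33.3% of the remaining gene held 13 of 17 peaks in Aff1 (76.5%, 50.1 to 93.2%) and 9 of 15 in Gse1 (60%, 32.3 to 83.7%), where the share over long genes was 37.3%. By that measure, chosen after seeing the data, the share in each gene was numerically higher than over long genes, and the interval of Gse1 included the share over long genes. The difference was not tested. The place of peaks in the first part of these genes thus depends on where the gene is taken to begin. At the other end of the span, Aff1 had 1 of 27 peaks in the last 33.3% of the span (3.70%, 0.0937 to 19.0%). Gse1 had 21 of 41 there (51.2%, 35.1 to 67.1%), against 30.3% over all long genes. Neighbouring peaks are not independent, so these intervals are too narrow. Whether either share differs from that of long genes was not tested. No peak in Aff1 lay beyond 77.0% of its length, where 20.8% of all peaks in long genes were found. Of the 29 genes with at least 20 DE peaks inside and a known strand, Aff1 was the only one whose last peak lay that early by percent of length. Aff1 is 162961 bp long, against, for example, 1612235 bp for Nrxn3 and 1019974 bp for Robo1. Lengths in kb without a peak at the 3′ end were not compared.

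**Figure D3:**
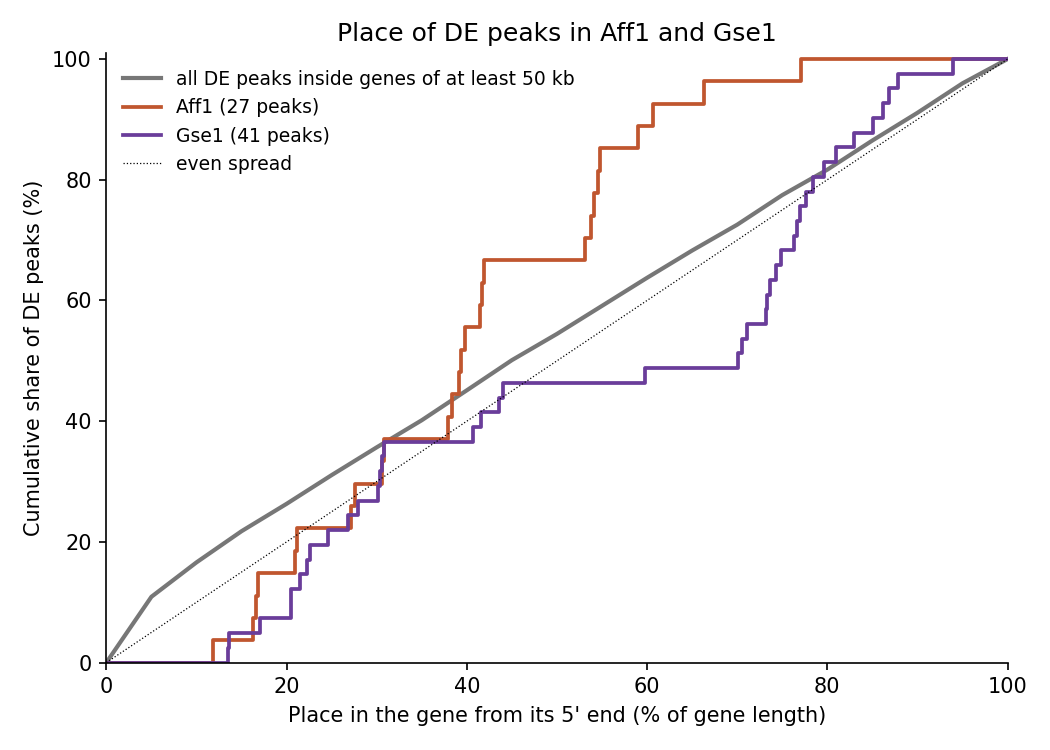
Cumulative share of DE peaks (%, y axis) by place in the gene from its 5′ end (% of gene length, x axis) for Aff1, Gse1 and all DE peaks inside long protein-coding genes. Aff1 has all 27 peaks before 77.0% of its length, while Gse1 rises in separate steps on the 5′ and the 3′ side.

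The other AFF genes, which were not chosen by their counts, held fewer DE peaks. The 3 DE peaks inside Aff2 were all in its first 7.74%, at 1.33, 37.3 and 39.6 kb from the 5′ end. The Aff3 peaks were at both ends and in the middle, with 2 in the first 33.3%, 5 in the middle and 3 in the last, and with spaces of up to 179 kb between neighbours. The Aff3 peak nearest to its promoter, at 38629428 to 38629589, was 2.26 kb before the listed start. The widest peak inside Aff3, of 564 bp at 38478016 to 38478579, carried the name Gm34727. In Aff4 the peak at 53357310 to 53357372 lay 6.57 kb after the listed start.

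Peaks at Aff1 came in close groups of 2 to 4. Of its 27 DE peaks, 18 had another DE peak within 500 bp (66.7%, exact 95% interval 46.0 to 83.5%), against 12.6% of all DE peaks. They formed 11 neighbouring pairs with gaps of 112 to 490 bp and a median of 313 bp. In Gse1 the same was true of 8 of 41 peaks (19.5%, 8.82 to 34.9%), with gaps of 69 to 342 bp. No peak in Aff2, Aff3 or Aff4 had such a neighbour. Among the 29 genes with at least 20 DE peaks inside and a known strand, Aff1 had the highest share and the next gene, Fto, had 27.3%. Genes about as dense as Aff1, such as Ddc (14 DE peaks inside) and Pax7 (16), fell below that number. The share was therefore not compared at like density. Since the lists had been merged over 50 bp by the authors, each member of such a pair counts as a peak of its own. With peaks at most 500 bp apart joined into 1, Aff1 went from 28 to 17 sites and from rank 2 to rank 14 among named genes, and its density from rank 5 to rank 23 of long genes. Gse1 went from 29 to 25 sites and remained first.

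**Figure D4:**
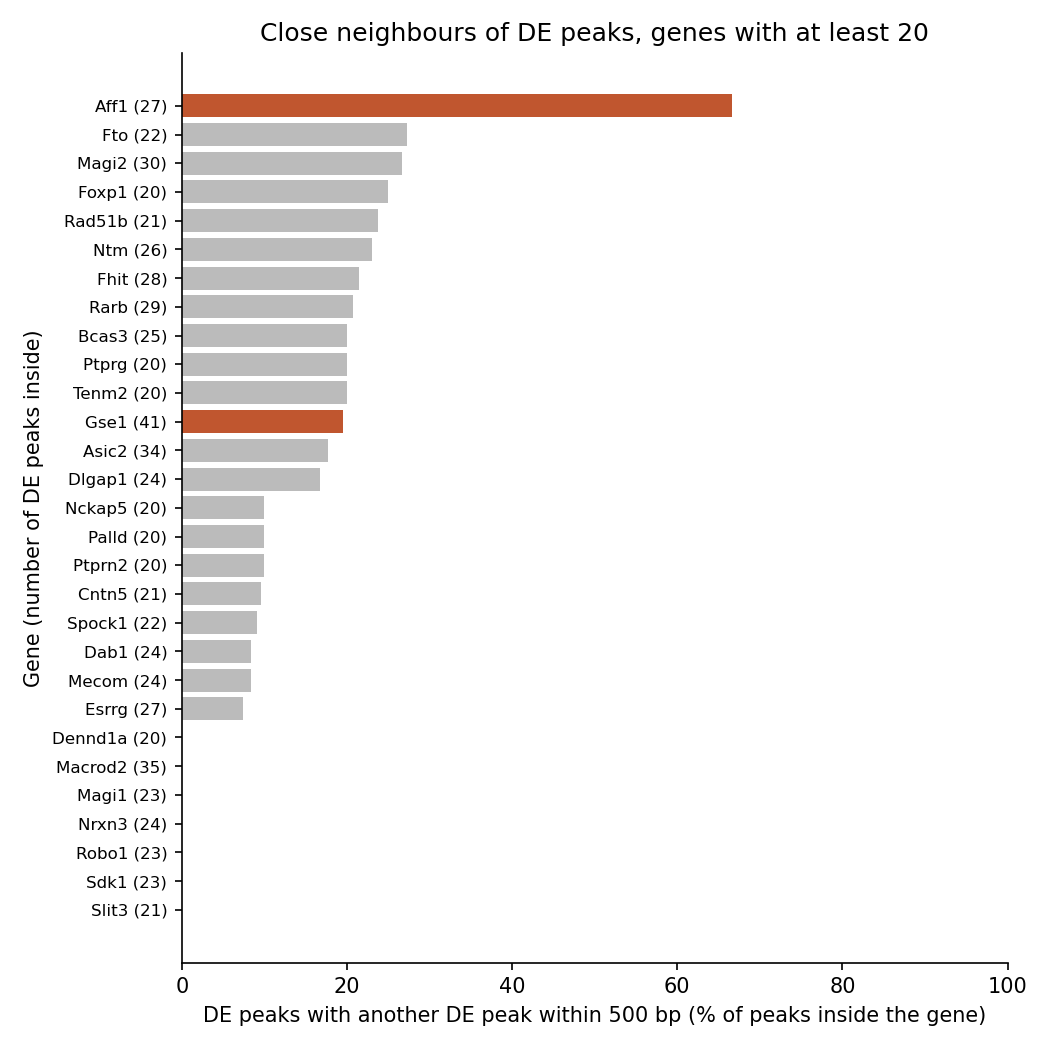
Share of the DE peaks inside each gene that have another DE peak within 500 bp (%, x axis) for the 29 genes with at least 20 DE peaks inside and a known strand, with the number of peaks in brackets. Aff1 stands at 66.7% and Gse1 at 19.5%, with every other gene at or below 27.3%.

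How far the peaks of a gene formed runs depended on the gap allowed between neighbours. Runs of at least 3 peaks with neighbouring centres at most 5 kb apart held 16 of the 28 Aff1 peaks (57.1%, 37.2 to 75.5%) in 3 runs, and 20 of the 29 Gse1 peaks (69.0%, 49.2 to 84.7%) in 4 runs. Over the 263 genes named at 10 or more DE peaks, 26.3% of peaks were in such runs, and by this share Gse1 ranked 17 and Aff1 33 among them. With a gap of at most 2 kb the runs held 16 Aff1 peaks and 9 Gse1 peaks, against 11% over the 263 genes, and with 10 kb they held 26 and 25, against 46.2%. Gse1 thus had more peaks in runs than Aff1 at 5 kb, and Aff1 had more at 2 kb and at 10 kb. Counting only peaks named for the gene, the longest runs held 9 peaks in Gse1 and 8 in Aff1, while the largest in any of the 263 genes held 10. The Gse1 run of 12 given above also counts peaks that carry another name. The median space between neighbouring peak centres inside the gene was 0.905 kb in Aff1, 3.38 kb in Gse1 and 25.1 kb in Aff3.

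DE peaks were next compared with the EpiSC list. At Aff1, 1 of 28 DE peaks overlapped an EpiSC peak by at least 1 bp (3.57%, exact 95% interval 0.0904 to 18.3%). At Gse1, 6 of 29 did so (20.7%, 7.99 to 39.7%). These intervals overlap, and the difference was not tested. The share of the whole DE list was 11.7%, given for scale, since both genes were chosen by their unshared DE peaks. Aff2, Aff3 and Aff4 had no shared peak. In the other direction, the 1 EpiSC peak of Aff1 and all 6 of Gse1 overlapped a DE peak, as did 78.8% of all EpiSC peaks. With 1 and 6 peaks these shares say little about either gene. The ratio of DE to EpiSC peaks was 28 at Aff1 (exact interval 4.63 to 1145) and 4.83 at Gse1 (1.97 to 14.2). The whole DE list was 6.76 times as long as the EpiSC list. The choice of the genes used these counts, so nothing is read from the ratios. Depth is unknown for these lists, so a list that reaches weaker sites and a gain of sites in DE cannot be told apart.

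Most shared sites of Gse1 were far from the listed starts. Of the 7 EpiSC peaks inside the gene, 5 lay on the 5′ side, in a stretch of 34.6 kb from 120300608 to 120335163 that held 9 DE peaks, 5 of them shared. These were 154 to 188 kb before the first listed start. The pairs overlapped by 75 to 223 bp. The EpiSC peak at 120323262 to 120323341 (80 bp) lay wholly within a DE peak of 240 bp, and that at 120327120 to 120327245 (126 bp) wholly within one of 231 bp. The DE peak at 120334963 to 120335111 (149 bp), by contrast, lay wholly within an EpiSC peak of 228 bp. On the 3′ side, 2 of 22 DE peaks were shared: the one upstream of the second start and one at 120509383 to 120509537 that the authors' deposited table gave to Gm26971. The 12 peaks of the run at the first listed start thus included 1 that was shared. At Aff1 the EpiSC peak at 103778897 to 103779109 (213 bp) lay wholly within the DE peak at 103778727 to 103779129 (403 bp).

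Width was the only measure of a peak's size in these lists. The DE peaks named Aff1 had a median width of 164.5 bp (range 66 to 695 bp) and those named Gse1 132 bp (67 to 459 bp), against 138 bp over the whole DE list (interquartile range 93 to 209 bp). Those of Aff3 had a median of 143 bp (69 to 306 bp), and the single peaks of Aff2 and Aff4 were 99 and 63 bp wide. All of these medians except that of Aff4 lay within the interquartile range of the list. At Gse1 the 6 shared DE peaks had a median of 198.5 bp and the 23 peaks found in DE alone 105 bp, in the same order as 224 and 129 bp over the whole list. The 4 widest Gse1 peaks, of 359 to 459 bp, were nevertheless all without an EpiSC counterpart. Among the 6319 widest DE peaks, a list as long as that of EpiSCs with a smallest width of 259 bp, 7 were named Aff1, 4 Gse1, 1 Aff3 and none Aff2 or Aff4.

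**Figure D5:**
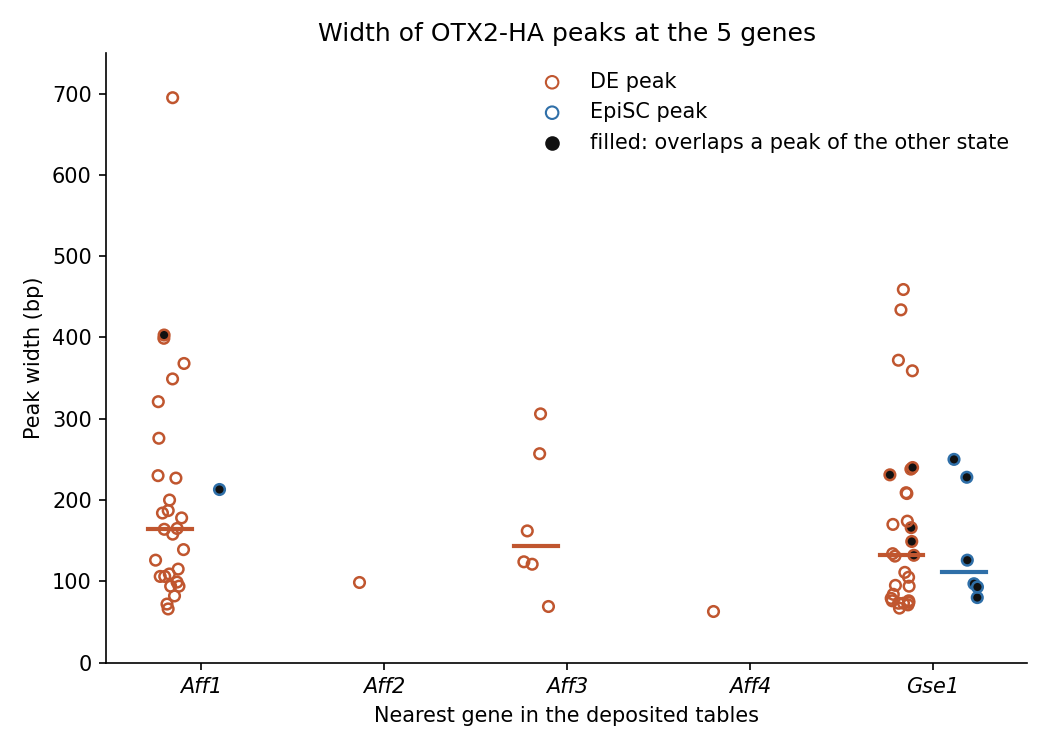
Width (bp, y axis) of each peak by the gene named in the deposited tables, with DE peaks in orange, EpiSC peaks in blue, bars at medians, and filled points for peaks that overlap a peak of the other state. The 4 widest Gse1 peaks and the widest Aff1 peak (695 bp) are open, that is, found in DE alone.

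By the counts in both lists, the genes most like Aff1 were Rarb (25 DE peaks and no EpiSC peak), Robo1 (23 and 1) and Efna5 (22 and 1), the last tied with Gse1, Spock1 and Gm10655 and named first because its listed length is closer to that of Aff1. Likeness here is the summed difference in the number of DE and of EpiSC peaks, over 2 lists, and it was 4, 5 and 6 peaks for these genes. Rarb, a retinoic acid receptor gene, and Robo1 and Efna5, genes of axon guidance, carried 4.45, 2.25 and 6.11 DE peaks per 100 kb, each below the 16.6 of Aff1. The genes most like Gse1 were Aff1, at a summed difference of 6, and Sema6a (22 DE and 5 EpiSC peaks) and Gm10655 (24 and 3), both at 8. Aff1 and Sema6a carried 16.6 and 8.73 DE peaks per 100 kb, beside 11.6 in Gse1, and Gm10655 had no listed length. Of the 12 genes named at 20 or more DE peaks, only Gse1, Sema6a and Gm10655 had more than 1 shared DE peak.

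Genes for the partners of AFF1 and GSE1 were counted in the same peak lists. Of 12 genes for the super elongation complex, 10 were named at 1 or more DE peaks and 6 at an EpiSC peak, where 50.4% and 15.3% of all protein-coding genes were. The median was 1.5 DE peaks per gene, and 1 over all protein-coding genes and in each of the other two lists. The 12 include Aff4 and also Aff1, which was chosen by its DE peaks and gave 28 of the 52 DE peaks of the list. The share and the median of this list thus rest in part on that choice. Mllt3, whose product reads acylated histones for this complex, was named at 10 DE peaks, of which 5 lay inside the gene, and at no EpiSC peak. Ccnt2, which encodes a cyclin partner of CDK9, had 3 DE peaks and 1 EpiSC peak. In neither list were 2 of the 12 named. Of 17 genes for pausing and elongation around this complex, 14 were named in DE and 10 in EpiSCs, each at 3 peaks or fewer. Cdc73 and Leo1, subunits of the PAF1 complex, and Hexim1, an inhibitor of CDK9, were among those with 3 DE peaks, with 0, 1 and 1 EpiSC peaks. In neither list were 2 of the 17 named. Of 11 genes for the CoREST complex around GSE1, 7 were named in DE and 1 in EpiSCs. Hdac2, a histone deacetylase gene, and Hmg20b had 3 DE peaks each, and Hmg20b alone of the 11 had EpiSC peaks, at 2. In neither list were 4 of the 11 named. All 11 together were named at 14 DE peaks. Gse1, named at 29, was chosen by its DE peaks and, at 352883 bp, is longer than each of the 11. Nothing is therefore read from the contrast.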

How the data were processed

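OTX2-HA and control samples (10 in all, 500000 cells each) were profiled by CUT&RUN in tagged EpiSCs, tagged DE and DE of the parental line. Per the submitters' processing notes, the tools were Bowtie2 2.3.5.1, SAMtools 1.14, Picard 2.26.10, bedtools 2.30 and MACS2 2.2.6 and the build was mm10. Peak calling thresholds and the control used are not given in the sources used here. The authors deposited 1 HA list per state, with both replicates pooled, as chromosome, start and end, merged over 50 bp per the file names, and the same intervals with the nearest gene. The label of EpiSC HA replicate 2 also names the DE list. One IgG sample, from tagged DE cells, is labelled with the files of the DE HA samples. These entries were taken for slips, with the DE list assigned to the DE HA samples alone. The lists give no score or depth. The columns marking differential genes were not used.

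Gene spans and promoter windows (250 bases before to 50 after a start) came from RefSeq tables of GRCm38.p6, which mm10 is built on. All 5 members matched. Strand was taken from the promoter windows, and exons and introns were not used here. Peaks were shared at an overlap of at least 1 bp. A peak was inside a gene when its centre was. Distances in kb of a peak from a listed start or from the 5′ end of a gene were taken from its centre. Members, lists and measures were chosen with earlier results of these data known. Named were all 5 members, the 3 genes most like Aff1 and Gse1, up to 3 genes of each partner list with the most DE peaks, each member's widest peak, the shared peaks and those nearest to a start; genes denser or in closer pairs than others were named after their values were seen. The values of 1 list gene are not reported here. No test was run, because each state is 1 pooled list. Shares have exact 95% Clopper-Pearson intervals, and the limit for a share of 0 is 3 counts of the total. Ratios have the exact interval of the matching share. Neighbouring peaks are not independent. Overlap, run and joining functions were tested on simulated intervals. Python 3.11.15, pandas 2.3.3 and scipy 1.17.1 were used.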

Additional observations from a re-analysis of the deposited data

How the results depend on the processing

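No paired analysis was possible because each state has a single HA list that joins its replicates, and for the same reason no replicate could be left out. Of 122 values under 15 alternatives, 94 were kept, meaning within 1.5 times for counts and densities and within the interval for shares and median widths, and 28 moved. The alternatives with a minimum width in EpiSCs, with joined peaks and with the gene measured from its first listed start were chosen after seeing the data. When the DE list was cut to the 6319 widest, DE peaks fell to 7 at Aff1, 4 at Gse1, 1 at Aff3 and 0 at Aff2 and Aff4. Densities fell to 4.30 per 100 kb in Aff1, 1.42 in Gse1, 0.440 in Aff3 and 0 in Aff2 and Aff4, and the shared percent of Gse1 DE peaks to 0, by a choice that selects on width. By position, Aff2 had 3 and Aff3 10 DE peaks inside the gene, and the median width at Aff2 was 78 bp. The nearest protein-coding gene gave 44 DE peaks to Gse1, 11 to Aff3, 4 to Aff2 and 2 to Aff4. The authors' nearest gene gave densities of 1.32 in Aff3 and 0.195 in Aff2. An equal minimum width of 78 bp left 0 peaks at Aff4, and joining left 17 at Aff1. The first 50 percent of Aff1 held 66.7% of its peaks (54.5% over all long genes) and the first 25 percent of Gse1 22.0% (31.1%); a wider or narrower part holds more or fewer peaks by construction, so nothing is read from these moves. Measured from the most upstream listed start, leaving out the peaks before it, the first 33.3% held 76.5% in Aff1 and 60% in Gse1. A gap of 10 kb put 26 Aff1 peaks in runs, and a gap of 2 kb put 9 Gse1 peaks in runs. Unknown read depth limits what the absence of a peak can show.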

Other observations

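Larp7, on the list of elongation factors, showed how an inner gene can take the peaks of its host, and was singled out after its values were seen. LARP7 is a protein of the 7SK particle that holds CDK9 inactive. In the authors' deposited table, Larp7 was named at 1 DE peak and 3 EpiSC peaks. By position, 7 DE peaks and 4 EpiSC peaks lay inside it (chromosome 3, 127536714 to 127553349, 16636 bp). The other 6 DE peaks, from 127536899 to 127544846, were given to Mir302b, a microRNA gene inside Larp7. Mir302b is at 127545228 to 127545301, in a row with Mir302c, Mir302a, Mir302d and Mir367, microRNAs typical of pluripotent cells. Of the 7 DE peaks, 2 were shared with EpiSCs, at 127544691 to 127544846 and 127547985 to 127548117. The EpiSC peak over the first of these was 465 bp wide and the DE peak 156 bp.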
